A study of Mus musculus with 6 samples.

Results

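Cornification, the last step of squamous differentiation, was followed through 38 genes that encode enzymes of the cornified envelope, its proteins, the junctions that hold cornified cells together, the proteases that cut those junctions, and enzymes of barrier lipids. The genes were taken by name: a probe was a member if its gene name in the scanner files was one of the 38, which gave 49 of the 41174 probes on the array. Of the 38 genes, 36 had a probe, and Lce3a and Lce3b were not analysed here. All 36 passed the filter on dim probes, that is, their sample channel was well above background on at least 3 of the 6 arrays, and they were compared among 20574 genes. Where a gene had several probes, the probe with the highest mean sample signal stood for it. A single member probe, the second one for Cst6, did not pass the filter.

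The RNA came from sheets of epithelium peeled from the forestomach, the part of the mouse stomach that carries a keratinised, skin-like lining. Control animals (n = 3) carried K5-CreER, a recombinase that tamoxifen activates and that the keratin 5 promoter drives, so that it acts in basal cells and passes to their progeny. Mutant animals (n = 3) carried the same recombinase together with a Sox2 construct on both Rosa26 alleles, written K5-CreER;Rosa26Sox2/Sox2 in the labels. Controls and mutants alike received tamoxifen in 2 doses at 7 weeks, were 12 weeks old and had a mixed 129/Sv and C57/BL6 background. The design text calls the controls wildtype, whereas the sample labels give them the K5-CreER genotype. Every array carried the animal's RNA in Cy5 and Universal Mouse Reference RNA, made from 11 mouse cell lines, in Cy3, with no dye swap. No label says whether a sample was 1 animal or a pool.

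Keratinocytes that leave the basal layer build a protein shell under the plasma membrane. Transglutaminases join envoplakin, periplakin, late cornified envelope proteins and others into this shell, and lipoxygenases and other enzymes make lipids that coat it and seal it against water. Cornified cells stay attached through corneodesmosomes, whose outer parts are desmogleins, desmocollins and corneodesmosin, until kallikrein proteases cut them and the cells are shed. In rodents the forestomach cornifies like skin, which the human oesophagus does not.

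The 6 arrays were not alike, and this touches every result on these genes. Control 3 was on a slide of its own and was scanned on another day than the other 5 arrays. Its median sample signal was 4.78 times the background, against 11.9 to 13.2 times on the others. Controls 1 and 2 shared a slide and the 3 mutants shared another, so genotype and slide cannot be told apart. Controls 1 and 2 differed from each other by a scaled median absolute difference of 0.16 in log2 ratio and mutants 2 and 3 by 0.10. Pairs of a control with a mutant lay 0.33 to 0.73 apart. Within a genotype, control 3 differed from controls 1 and 2 by 0.54 and 0.53, and mutant 1 from mutants 2 and 3 by 0.37 and 0.36, distances within the range between genotypes. Repeated spots of 1 probe on 1 array differed by 0.046 to 0.065, over probes well above background on all arrays. The only Sox2 probe lies at base 1846 of its transcript, and no label says whether the construct holds that stretch, so it does not check the labels. Its sample channel was 14.41, 14.39 and 14.01 on controls 1 to 3 and 13.30, 13.71 and 13.87 on mutants 1 to 3 (log2).

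The sheets also held other cell types in unequal amounts. The summed sample signal of 14 glandular stomach markers was 1586000 and 1461000 on controls 1 and 2 but 7316 on control 3, and 325900, 1286000 and 907500 on mutants 1 to 3. On control 3, 10 of these 14 markers were still well above background, but Pgc, the pepsinogen of chief cells, was at 6.9 there against 16.7 and 16.8 on controls 1 and 2 (log2). The sum of 11 fibroblast and smooth muscle markers was 151900 on control 3 and 416300 on mutant 1, against 747000 to 985000 on the other 4 arrays. The sum of 10 squamous markers was highest on control 3, at 2884000, and lay between 1780000 and 2249000 elsewhere. That sum is carried by bright genes such as Perp, at 20.10 on control 3 against 19.10 and 19.16 on controls 1 and 2 (log2). Gene by gene, control 3 was the highest control for 4 of the 10. The median distance of control 3 from the mean of controls 1 and 2 was -0.06. Krt15, for example, was at 15.31 on control 3 against 16.68 and 16.76. All 10 squamous markers were well above background on the other 5 arrays and 9 on control 3. In the sample channel, 6 of the 10 had a higher mean in mutants and 4 a lower one. Mutant minus control differences (log2) were 6.79 for Krt6a, 6.37 for Krt6b and 1.88 for Dsg3, but -1.80 for Krt4 and -1.38 for Krt15. For Krt6a, Krt6b and Dsg3 the reference channel was 6.23, 6.01 and 1.94 higher on mutant arrays too. Their ratios differed by 0.56, 0.36 and -0.06. The 6 hair follicle and hair shaft genes summed to 4154 to 5519 on 4 arrays, 9870 on control 3 and 15630 on mutant 1. Each of the 2 high sums rested mostly on 1 gene, S100a3 on control 3 (12.90) and Tchh on mutant 1 (13.69, log2). The hair keratins Krt32 and Krt35 were low on all 6 arrays, at 6.59 to 8.19, so these sums are no measure of hair follicle cells. The 10 immune cell markers summed to 34140 to 39080 on the mutants and 17270 to 22540 on the controls. Gene by gene, 9 of the 10 had a higher mean in mutants in the sample channel. On mutants 2 and 3 the higher sum rested mostly on Cd68, at 14.20 and 14.13 against 12.28 to 12.38 on controls (log2). Ptprc was at 10.35 on both, against 10.36, 10.34 and 9.65 on controls 1 to 3 and 12.43 on mutant 1. In RNA of whole sheets, fewer cells of a type and less RNA per cell cannot be told apart, and the part of these shifts in the results below was not tested.

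**Figure D1:**
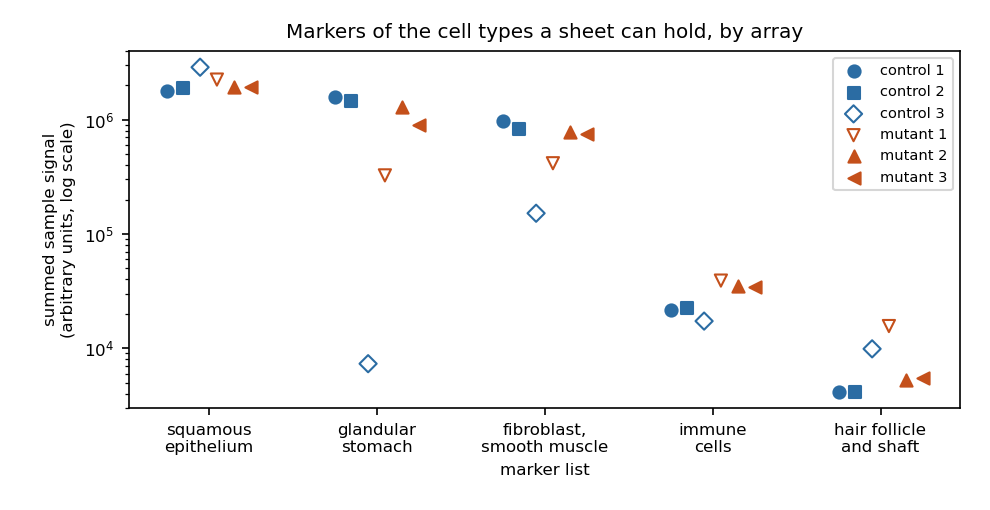
Summed sample-channel signal of 5 marker lists on each array, in arbitrary units on a log scale; each point is 1 array, blue for controls and orange for mutants, with control 3 and mutant 1 as open symbols. Glandular markers summed to 7316 on control 3 and to 325900 on mutant 1, against 907500 to 1586000 on the other 4 arrays.

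None of the 36 measured members passed the test between genotypes. In limma, with Benjamini-Hochberg adjustment over all genes and a threshold of 0.05, 581 of 20574 genes differed in the log2 ratio of sample over reference (2.82%), 287 higher and 294 lower in mutants, and 0 of the 36 members were among them. At an unadjusted p below 0.05 there were 19 of 36 members and 4906 of all genes. The directions of the members lay largely on 1 side: 34 of 36 had a negative mutant minus control difference, with a median of -0.77, against 49.4% of all genes and a median of 0.01. Tgm5 and Mal had positive differences. In 30 of the 36 members all 3 mutant arrays lay below all 3 controls, an arrangement found in 18.2% of all genes. That count rests on the brightest probe of each gene. Further probes past the filter had overlapping groups for Alox12b, Ecm1, Lce1b and Lce1g and for a probe of Klk7. Those of Evpl, Krtdap, Lce3c, Ppl and Sbsn had mutants lower without overlap too.

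Much of that distance came from control 3. It had the highest ratio of the controls for 34 of the 36 members, against 38.5% of all genes, and the members' median ratio was 4.96 on it, 3.91 and 3.83 on controls 1 and 2, and 3.56, 3.62 and 3.33 on mutants 1 to 3. Without control 3 the median difference was -0.42, still negative for 34 members, and 1 member passed: Lce3c, at -0.90 (adjusted p = 0.0493 in limma). Without mutant 1 the median was -0.82 and Dsg1a passed, at -1.65 (adjusted p = 0.0163 in limma). Without both arrays, leaving the 2 close pairs on their own slides, 24 members passed, 23 lower and Tgm5 higher, among 7730 genes called in all (37.6%). Leaving out control 1, control 2, mutant 2 or mutant 3 gave 57, 43, 34 and 36 genes called, against 1483 without control 3 and 615 without mutant 1. With each close pair averaged into 1 value, 0 of 20574 genes passed in limma, and 2194 had an unadjusted p below 0.05.

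**Figure D2:**
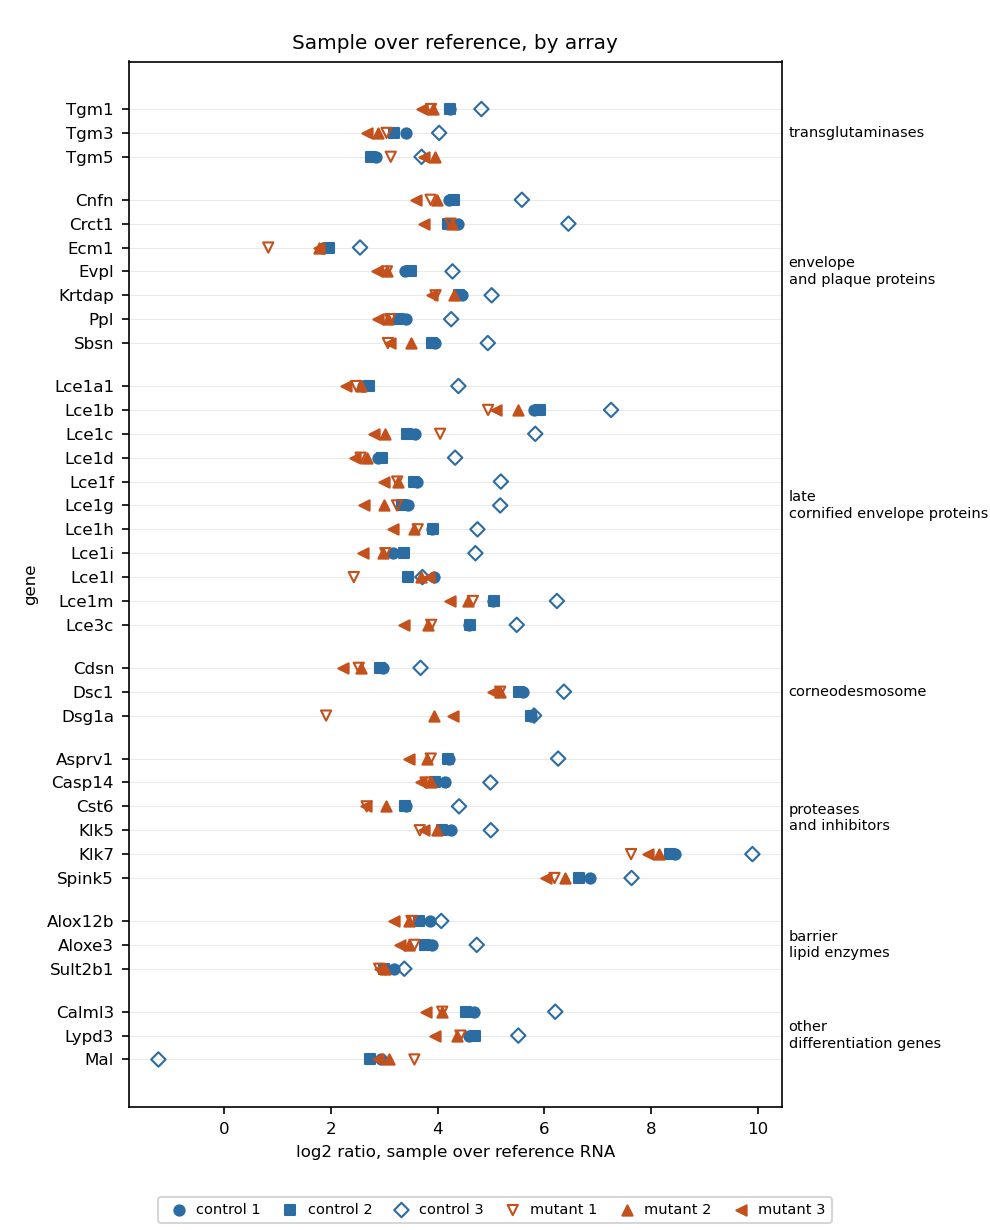
Log2 ratio of sample over reference RNA for the 36 measured members, 1 row per gene grouped by role and 1 point per array. For 34 genes control 3 (open diamond) is the highest control, and for 30 genes the 3 mutant arrays (orange) all lie left of the 3 controls (blue).

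Among the transglutaminases, Tgm1 and Tgm3 had lower ratios in mutants and Tgm5 a higher one, and none passed. Tgm1, the membrane-bound enzyme that starts the envelope (probe at chr14:56319032-56319091, mm9), had log2 ratios of 4.24, 4.22 and 4.82 in controls 1 to 3 and 3.88, 3.92 and 3.71 in mutants 1 to 3. The groups did not overlap, and control 3 stood highest. The means were 4.43 ± 0.34 (SD, n = 3) and 3.83 ± 0.11 (SD, n = 3), a difference of -0.59 (SE 0.19, adjusted p = 0.14 in limma). The sample channel alone gave Tgm1 the other sign, 0.12, with a reference signal 0.71 higher on mutant arrays. Tgm3, a soluble enzyme of the same reaction, had ratios of 3.41, 3.18 and 4.03 in controls and 3.04, 2.88 and 2.67 in mutants. Its ratio differed by -0.67, while its sample channel was 0.75 and its reference channel 1.42 higher in mutants. Tgm5 had ratios of 2.83, 2.75 and 3.70 in controls and 3.12, 3.95 and 3.74 in mutants, a difference of 0.51 with overlapping groups, since control 3 lay among the mutants. In the sample channel none of the 3 enzymes had mutants below controls, and all were above the mean of controls 1 and 2 on every mutant array. Control 3 was above that mean for all 3 as well, with a median of 0.72. Its value lay above all mutants for Tgm1 (17.36 against 16.93 to 17.14) and Tgm5 (11.74 against 10.51 to 11.65). For Tgm3 it lay above mutant 1 only.

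The 7 envelope and plaque proteins all had lower mean ratios in mutants, with a median of -0.73, and none passed. For Krtdap and Crct1 the sample spots of controls 1 and 2 and mutants 2 and 3 were saturated, so the sizes of their differences are not settled. Sbsn encodes suprabasin, a secreted protein of the suprabasal layers (probe at chr7:31540994-31541053, mm9). Its ratios were 3.95, 3.90 and 4.94 in controls and 3.07, 3.49 and 3.11 in mutants. All mutants lay below all controls, with mutant 2 closest to them. The means were 4.26 ± 0.59 (SD, n = 3) and 3.22 ± 0.23 (SD, n = 3), a 2.06-fold lower mean (difference -1.04, SE 0.31, adjusted p = 0.12 in limma), and the sample channel gave -0.93. The plaque proteins Evpl (envoplakin) and Ppl (periplakin), which tie keratin and desmosomes to the envelope, differed by -0.73 and -0.62. Their values without overlap were 3.39 to 4.28 in controls and 2.86 to 3.06 in mutants for Evpl, and 3.27 to 4.25 and 2.87 to 3.11 for Ppl.

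Krtdap, a keratinocyte differentiation-associated peptide, was read by 2 probes. The brighter, saturated on those 4 arrays, gave ratios of 4.39 to 5.01 in controls and 3.89 to 4.30 in mutants, a difference of -0.56. The other, saturated on none, gave 4.54, 4.54 and 6.04 in controls and 4.16, 4.10 and 3.64 in mutants, a difference of -1.07, with control 3 apart from the rest. Cnfn, cornifelin, differed by -0.88 in the ratio but by -0.07 in the sample channel. Ecm1, the extracellular matrix protein 1 that upper keratinocytes secrete, differed by -0.66, and mutant 1 stood apart at 0.82 against 1.77 and 1.78 in mutants 2 and 3. Crct1, a cysteine-rich protein encoded within the late cornified envelope region, had 6.45 in control 3 and 4.24 in mutant 1, the arrays on which it was not flagged as saturated. On control 3 its raw sample signal of 579976 was still near that array's highest spot, 597800. On the saturated arrays it stood at 4.38 and 4.19 in controls 1 and 2 and 4.27 and 3.75 in mutants 2 and 3. The difference over all 6 arrays was -0.92, with overlapping groups.

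Promoter sequence was available for 28 of the 38 members in the RefSeq promoter table (GRCm38.p6), as the 250 bases upstream of each gene's start, read on the gene's strand. The 3 shown first belong to the secreted envelope genes of this group, because their windows hold an AP-1 motif, TGANTCA; capitals mark it and the TATA motif TATAAA.
Krtdap (chr7:30787775-30787904, plus strand): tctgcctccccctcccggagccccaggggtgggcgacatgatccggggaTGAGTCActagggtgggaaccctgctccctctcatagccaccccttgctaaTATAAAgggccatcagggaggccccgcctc
Sbsn (chr7:30751341-30751470, plus strand): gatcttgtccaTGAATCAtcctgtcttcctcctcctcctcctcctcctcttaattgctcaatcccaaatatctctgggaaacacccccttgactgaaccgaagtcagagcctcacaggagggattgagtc
Ecm1 (chr3:95739570-95739699, minus strand): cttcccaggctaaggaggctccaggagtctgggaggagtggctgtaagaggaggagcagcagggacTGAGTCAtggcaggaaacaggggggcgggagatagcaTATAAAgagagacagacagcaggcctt
The motif lies 81 to 75 bases upstream of the Krtdap start, 119 to 113 bases upstream for Sbsn and 64 to 58 bases upstream for Ecm1. Searched on both strands, TGANTCA was present in 4 of the 28 member windows, the other being Sult2b1, and in 7.82% of the windows of all 27025 genes. TATAAA was present in 5 of 28, namely Ecm1, Krtdap, Lce1d, Lce1m and Tgm3, in each case with its first base 27 to 30 bases upstream of the start, and in 14.3% of all genes. For SOX factors, ACAATG was present in 0 of 28 and in 12.2% of all genes, and ACAAAG in 4 of 28 (Asprv1, Lce1g, Lce1i and Tgm3) and in 18.6% of all genes. These are matches of letters in a short window and no measurement of binding.

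All 11 measured late cornified envelope genes, whose cysteine- and glycine-rich products are cross-linked into the shell late, had lower mean ratios in mutants. Differences ran from -0.38 (Lce1l) to -1.20 (Lce3c) with a median of -0.95; in 9 of the 11 the groups did not overlap, with mutants lower, as in 18.2% of all genes, and none passed the test. Lce3c (probe at chr3:92749506-92749565, mm9) had ratios of 4.59, 4.60 and 5.48 in controls and 3.88, 3.82 and 3.37 in mutants. The gap between the lowest control and the highest mutant was wider than the distance between controls 1 and 2. Its means were 4.89 ± 0.51 (SD, n = 3) and 3.69 ± 0.28 (SD, n = 3), a 2.30-fold lower mean (difference -1.20, SE 0.29, adjusted p = 0.085 in limma), the smallest p of the 36 members. Its sample spots on mutants 2 and 3 were saturated, so the mutant ratios there are lower bounds, and without those 2 values the difference was -1.01 (adjusted p = 0.26 in limma, 1 mutant array left, assumed to vary like the controls). In the sample channel, however, Lce3c was 18.54, 18.56 and 19.36 in controls and 18.25, 19.01 and 18.86 in mutants, a difference of -0.11 with overlapping groups. Its reference channel was 1.09 higher on mutant arrays. Its second probe, saturated on no array, gave -0.95 in the ratio, against -0.08 in the sample channel.

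The Lce1 genes differed from Lce3c in this respect. Lce1b had sample channel values of 19.05, 19.09 and 20.09 in controls and 17.74, 18.81 and 18.73 in mutants, a difference of -0.98, beside -1.15 in the ratio. Lce1m had the most negative sample-channel difference of the family, at -1.62, with 15.53 in mutant 1 against 17.64 and 17.62 in mutants 2 and 3. Lce1h gave -1.05, with 15.95 in mutant 1 against 17.64 and 17.62. Lce1a1, Lce1c, Lce1d, Lce1f, Lce1g, Lce1i and Lce1l lay between -0.51 and -0.91 in the sample channel. In 8 of the 11 family members the sample channels of the groups did not overlap (17.4% of all genes had mutants lower in this way), and in all 11 mutant 1 was the lowest mutant and control 3 the highest control. Lce1l was the member whose ratio changed sign with the arrays used: -0.38 over all 6 arrays, 0.06 without mutant 1.

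Upstream likeness was high in a subset of the family. Over the 130 bases upstream of the start, compared position by position, 10 of 66 pairs of late cornified envelope genes were the same at 70% of positions or more, all among Lce1c, Lce1d, Lce1g, Lce1h and Lce1i, and the other 56 pairs at no more than 45.4%. The 130 bases upstream of Lce1g and of Lce1h are the same at 113 positions (86.9%); they are shown because this pair and Lce1i are the closest in the family, and capitals mark the bases that differ within the pair.
Lce1g (chr3:92752339-92752468, minus strand): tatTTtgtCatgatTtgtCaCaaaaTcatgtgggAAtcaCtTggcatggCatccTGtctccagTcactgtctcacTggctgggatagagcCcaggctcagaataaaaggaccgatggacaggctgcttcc
Lce1h (chr3:92765066-92765195, minus strand): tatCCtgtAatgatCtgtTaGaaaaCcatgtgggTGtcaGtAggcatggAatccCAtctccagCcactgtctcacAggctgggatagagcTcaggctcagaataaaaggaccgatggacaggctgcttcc
Lce1d and Lce1m carry the exact TATAAA motif, in capitals.
Lce1d (chr3:92687211-92687340, minus strand): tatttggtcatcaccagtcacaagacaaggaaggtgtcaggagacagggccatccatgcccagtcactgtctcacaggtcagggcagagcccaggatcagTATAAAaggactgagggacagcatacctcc
Lce1m (chr3:93019062-93019191, minus strand): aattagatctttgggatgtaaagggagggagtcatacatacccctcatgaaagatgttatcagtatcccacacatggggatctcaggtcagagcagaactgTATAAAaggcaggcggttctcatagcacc
Of the 49 member probes, 0 shared a run of 20 or more bases with a probe of another gene on the array. Among late cornified envelope probes the closest pair was that of Lce1d and Lce1i, with 46 equal bases at the best ungapped alignment and a longest shared run of 10. Likeness to transcripts without a probe was not tested.

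The 3 corneodesmosome members had lower mean ratios in mutants without overlap, the arrangement of 18.2% of all genes, and none passed. Dsg1a encodes a desmoglein, an adhesion molecule of suprabasal desmosomes, and had the largest difference of the 36 members. Its ratios were 5.74, 5.75 and 5.81 in controls and 1.91, 3.94 and 4.29 in mutants. The controls were nearly equal, control 3 included, while mutant 1 lay far below the other mutants. The means were 5.77 ± 0.04 (SD, n = 3) and 3.38 ± 1.29 (SD, n = 3), a 5.23-fold lower mean (difference -2.39, SE 0.60, adjusted p = 0.094 in limma). The reference signal under these ratios was low, at raw values of 57 to 89, and well above background on only 2 of the 6 arrays, so the size of the ratio difference is uncertain. The sample channel, well above background on all 6 arrays, gave -3.05 (adjusted p = 0.088 in limma), with mutants at 8.26, 10.20 and 10.49 and the lowest control at 12.21. Dsc1, a desmocollin, had 5.61, 5.52 and 6.37 in controls and 5.17, 5.16 and 5.04 in mutants, a difference of -0.71. A probe named 1110020A10Rik in the files, which RefSeq places in Dsc1 and which is no member by name, gave -0.20 with overlapping groups: 9.68, 9.56 and 9.31 in controls and 8.29, 9.75 and 9.92 in mutants. Its raw reference signal was 63 to 102. Cdsn, corneodesmosin, differed by -0.75 in the ratio and spread over 3.15 log2 units in the sample channel: 17.34 on control 3, 14.19 on mutant 1, and 15.41 to 16.33 on the other 4 arrays, where both mutants were above both controls.

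The proteases and their inhibitors had the same sign whether the ratio or the sample channel was read. Read on the brightest probe of each gene, all 6 had lower ratios and lower sample-channel values in mutants without overlap. Such arrangements were found in 18.2% and 17.4% of all genes, and none of the 6 passed in either. Spink5 encodes LEKTI, the inhibitor of the epidermal kallikreins. Its ratios were 6.85, 6.66 and 7.63 in controls and 6.19, 6.38 and 6.04 in mutants, with control 3 highest. The means were 7.05 ± 0.52 (SD, n = 3) and 6.20 ± 0.17 (SD, n = 3), a difference of -0.84 (SE 0.27, adjusted p = 0.14 in limma), and the sample channel gave -0.50. Cst6, cystatin M/E, an inhibitor of cathepsins, differed by -0.94 in both, with 16.87 in mutant 1 against 18.27 and 18.22 in mutants 2 and 3 in the sample channel.

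Klk5 and Klk7 are the kallikreins that cut corneodesmosomes. Klk5 had sample channel values of 16.29, 16.60 and 16.53 in controls and 11.90, 15.17 and 15.20 in mutants. The difference of -2.38 was the second most negative of the members in that channel, and mutant 1 lay 3.29 below the mean of mutants 2 and 3. Its reference channel differed by -1.74, and the ratio by -0.64. Klk7 was measured by 3 probes. They gave -1.28, -1.58 and -1.26 in the sample channel but -0.998, -0.56 and -0.24 in the ratio, so the probes were closer to each other in the sample channel. For the probe that gave -0.24 the groups overlapped in the ratio, at 3.26, 2.96 and 4.93 in controls and 4.41, 3.31 and 2.71 in mutants. The probe that gave -1.58 spans an intron (chr7:51068393-51068639, plus strand, mm9) and reads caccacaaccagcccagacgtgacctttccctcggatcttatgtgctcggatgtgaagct, from base 525 of its transcript.

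Casp14, the caspase that processes filaggrin in cornifying cells, had sample channel values of 14.98, 15.35 and 15.90 in controls and 12.97, 13.96 and 13.85 in mutants. Its difference of -1.82 had the smallest adjusted p of the members in that channel (0.073 in limma), and its ratio differed by -0.58. Asprv1, a retroviral-like protease that also acts on filaggrin, differed by -1.18 in the ratio, with 6.26 on control 3 against 4.21 and 4.20 on controls 1 and 2 and 3.46 to 3.87 on mutants.

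The 3 barrier lipid enzymes had the smallest median ratio difference of the role groups, -0.47, and none passed. Alox12b encodes a lipoxygenase that acts on acylceramides (probe at chr11:68983104-68983163, mm9). Its ratios were 3.86, 3.65 and 4.07 in controls and 3.51, 3.46 and 3.19 in mutants, without overlap, although control 2 and mutant 1 lay close. The means were 3.86 ± 0.21 (SD, n = 3) and 3.38 ± 0.17 (SD, n = 3), a difference of -0.47 (SE 0.16, adjusted p = 0.15 in limma), and the sample channel gave 0.08. Its second probe gave -0.04 in the ratio, against 0.15 in the sample channel, with overlapping groups. That probe spans an intron (chr11:68979536-68979770, plus strand, mm9) and reads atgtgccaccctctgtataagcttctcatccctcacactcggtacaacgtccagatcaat, from base 1429 of its transcript. Aloxe3, the lipoxygenase that acts next on the product of Alox12b, differed by -0.69 in the ratio, against -0.50 in the sample channel. Sult2b1, the sulfotransferase that makes cholesterol sulfate, differed by -0.24, with overlapping groups, and by 0.21 in the sample channel.

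Of the remaining differentiation genes, Calml3, a calmodulin-like protein of differentiated epithelium (probe at chr13:3802177-3802236, mm9), had ratios of 4.69, 4.53 and 6.20 in controls and 4.08, 4.07 and 3.78 in mutants. Control 3 lay more than 1 unit above the other controls. The means were 5.14 ± 0.92 (SD, n = 3) and 3.98 ± 0.17 (SD, n = 3), a difference of -1.16 (SE 0.44, adjusted p = 0.18 in limma), and the sample channel gave -0.76. Lypd3, a membrane-anchored protein of suprabasal cells, differed by -0.68 in the ratio, against -0.32 in the sample channel. Mal, a small membrane proteolipid of apical transport, had a higher mean in mutants, as had Tgm5. Its ratios were 2.94, 2.74 and -1.24 in controls and 3.56, 3.08 and 2.88 in mutants, a difference of 1.69 (SE 1.098, adjusted p = 0.38 in limma). Control 3 was the array that stood apart: its raw sample signal for Mal was 88, not well above background, against 4513 and 4163 on controls 1 and 2. The same array held the low glandular marker sum given above.

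Because the reference RNA was the same on every array, its channel is given beside the ratio. For the members the normalised reference signal ranged over a median of 1.41 log2 units across the 6 arrays, against 0.40 for all genes, and up to 4.29 for Klk5. The raw reference signal of Klk5 was 4425, 5427 and 1744 on controls and 314, 2606 and 3207 on mutants. Its raw sample signal ranked the arrays alike, at 94060, 124160 and 41062 on controls and 4281, 46855 and 50733 on mutants. A shift that both channels share cancels in the ratio, and its cause was not tested. The normalised reference signal was higher in mutants for 27 members and lower for 9, against 9021 higher and 11468 lower among all genes. The sample channel alone, after loess and Aquantile scaling between arrays, gave 30 negative and 6 positive members with a median of -0.61, against 50.1% negative genes in all. With quantile scaling of the sample channel 27 members were negative, with a median of -0.32, and Cnfn, Lce3c and Lypd3 were above 0 too (0.20, 0.30 and 0.051). After loess and Aquantile scaling, 347 of 20574 genes passed in limma (1.69%), again with 0 of the 36 members. An unadjusted p below 0.05 was found for 7 of the 36 members and for 4150 of the 20574 genes. In 21 members the sample channel of all 3 mutants lay below all 3 controls, an arrangement found in 17.4% of all genes, and in 1, Mal, above. For Tgm1, Tgm3, Alox12b and Sult2b1 the ratio was negative and the sample channel positive.

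**Figure D3:**
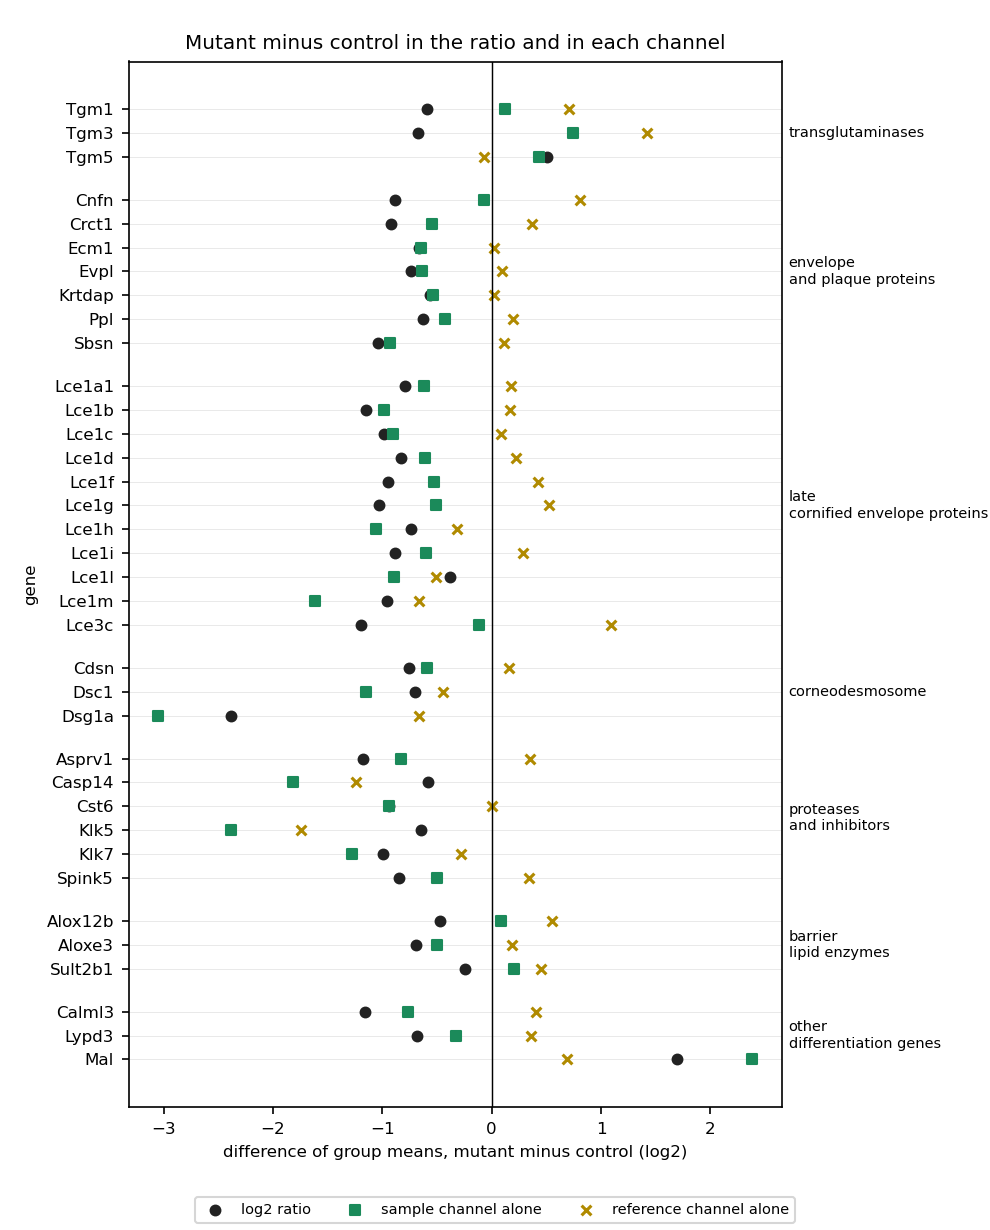
Mutant minus control difference of group means (log2) for each member in the ratio (black circles), the sample channel alone (green squares) and the reference channel alone (yellow crosses). The ratio is negative for 34 of 36 members, the sample channel for 30, and the reference channel, which carries the same RNA on every array, is above 0 for 27.

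Arrays of 1 genotype were compared next. Set against the mean of controls 1 and 2 in the sample channel, control 3 was higher for 35 of the 36 members with a median of 0.82, the exception being Mal. Mutant 1 was lower for 30 members with a median of -0.79, and its lowest was Klk5 at -4.55. Mutants 2 and 3 were lower for 23 and 22 members with medians of -0.10 and -0.19. Of all genes, 9630 of 20546 were higher on control 3. Lower were 10494 of 20552 on mutant 1, 10437 of 20532 on mutant 2 and 10436 of 20513 on mutant 3. Mutant 1 was the lowest mutant in the sample channel for 32 members, against 44.9% of all genes. By role, the proteases and inhibitors were lower on all 3 mutant arrays for 6 of 6 genes, with medians of -1.76, -0.29 and -0.30. The transglutaminases were higher for 3 of 3 genes, with medians of 0.40, 1.31 and 1.23, as they were on control 3, with a median of 0.72. Among these 4 arrays, mutants 2 and 3 both lay below controls 1 and 2 for 22 members and both above for 12 in the sample channel, against 38.2% and 36.1% of all genes. In the ratio the counts were 31 and 1, against 37.9% and 35.8%.

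**Figure D4:**
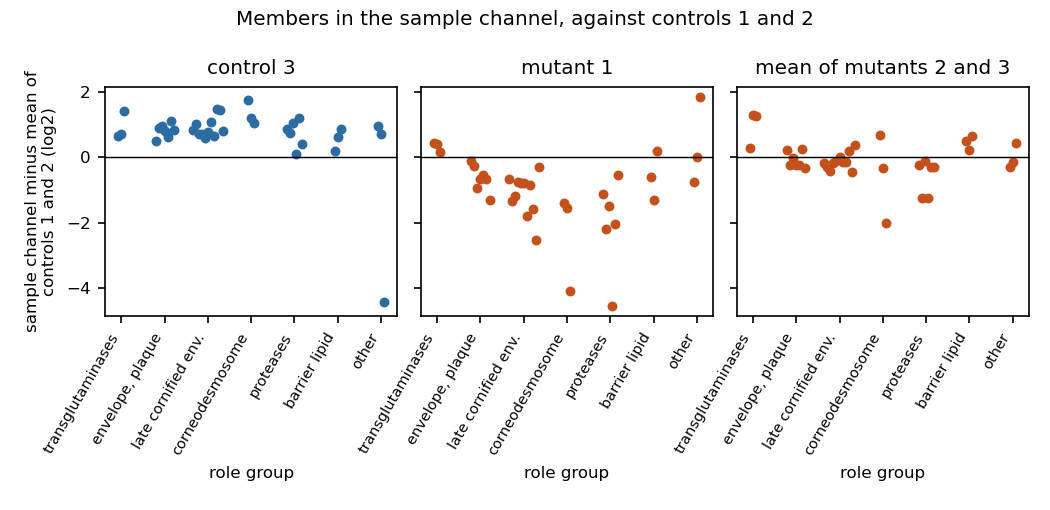
Sample-channel level of each member minus the mean of controls 1 and 2 (log2), by role group, for control 3, mutant 1 and the mean of mutants 2 and 3; each point is 1 gene. Control 3 lies above 0 for 35 of 36 members and mutant 1 below 0 for 30, while the mean of mutants 2 and 3 lies near 0 apart from a few genes such as Dsg1a, Klk5 and Casp14 below and Tgm3 and Tgm5 above.

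Saturation touched 8 members. The number saturated in the sample channel was 3, 5 and 0 on controls 1 to 3 and 0, 5 and 8 on mutants 1 to 3, and no member was saturated on every array of a group. The 28 members without a saturated array had a median ratio difference of -0.74 and the other 8 one of -0.86; in the sample channel the medians were -0.64 and -0.58. A saturated spot holds its value at the scanner's ceiling, so its level is a lower bound. Krtdap, Crct1 and Lce1a1 were saturated on 4 arrays and Lce1d on 3. Lce3c and Asprv1 were saturated on 2 arrays, and Lce1i and Lypd3 on mutant 3 alone. With saturated spots given no value, the difference of Lce1a1 went from -0.79 to -1.92 and that of Crct1 from -0.92 to -2.21, each then resting on control 3 and mutant 1 alone. On control 3 the raw signals of Lce1a1 (570883), Asprv1 (579955) and Crct1 (579976) were not flagged but lay near that array's highest spot, 597800. Whether they were at a ceiling was not tested. Lce1d went from -0.83 to -1.05, Asprv1 from -1.18 to -1.40, Lce1i from -0.88 to -0.75 and Lypd3 from -0.68 to -0.54. The median of all 36 was then -0.80, with 34 negative and 0 passing in limma. Unadjusted p was below 0.05 for 18 of the 36 and for 4904 of 20571 genes in all.

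Other genes of the same pathways, not on the list of 38, included some that passed. Of 26 measured desquamation and processing genes, 2 rose and 1 fell. Klk14, another kallikrein, rose 4.37-fold, from ratios of 2.16, 2.35 and 1.67 in controls to 4.14, 4.29 and 4.14 in mutants (difference 2.13, adjusted p = 0.0092 in limma). Hal, histidine ammonia lyase, which makes urocanic acid, rose 4.97-fold, from between -1.06 and -0.998 to 2.01, 0.95 and 0.89 (adjusted p = 0.022 in limma). Padi1, a deiminase that acts on keratins and filaggrin, fell 2.37-fold, from 2.77, 2.70 and 3.07 to 2.04, 1.41 and 1.36 (adjusted p = 0.046 in limma). For these 3 genes the sample channel had the same sign, at 4.46, 2.502 and -1.73. Their reference channels differed by 2.33, 0.19 and -0.49. The calls were less firm than the signs. On the software's processed signals Klk14 differed by 0.04 (adjusted p = 0.95 in limma), and the call was lost without control 1, mutant 2 or mutant 3 (adjusted p = 0.055, 0.067 and 0.063 in limma). Hal lost its call without control 1, control 2, mutant 2 or mutant 3 (0.10, 0.11, 0.096 and 0.083 in limma), and Padi1 without control 1, 2 or 3 or mutant 2 or 3 (0.15, 0.15, 0.052, 0.17 and 0.17 in limma). With slide as a random block all 3 lost the call (adjusted p = 0.11 for Klk14, 0.47 for Hal and 0.57 for Padi1 in limma), as they did with near-identical arrays averaged (0.26, 0.38 and 0.46). Padi1 also missed the threshold on the processed signals (0.077), with median centring (0.080), with arrays scaled to one spread (0.13), in the sample channel (0.069), in the deposited log2 ratios (0.064) and with the replicate block (0.090). The fourth by p, Tmprss11d, an airway-type serine protease, had a difference of 1.44 in the ratio (adjusted p = 0.076 in limma) and passed in the sample channel at 2.91 (adjusted p = 0.0081 in limma), but differed by -0.96 on the processed signals.

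Of 23 further barrier lipid genes 0 passed in limma in either channel; 20 were negative in the ratio, with a median of -0.41. The 4 with the smallest p were Elovl4, which extends the very long fatty acids of ceramides (-0.95), Dgat2 (-1.12), Lipm (-0.72) and Cyp4f39 (-0.38). Of 23 further envelope and plaque genes 0 passed in the ratio, with 14 negative and a median of -0.27. The first 4 were Anxa1 (1.28), Eppk1, epiplakin (-1.31), Tgm4 (-0.42) and the stefin Stfa2 (1.41). Dsc2, another desmocollin, passed in the sample channel alone, at 3.43 (adjusted p = 0.028 in limma), while its reference channel was 3.24 higher too and its ratio differed by 0.19. The 3 further late cornified envelope genes measured were Lce1e (-0.58), Lce3f (-0.88) and Lce1a2 (-0.87), of which 0 passed in limma. Among genes of these lists the desmosomal core protein desmoplakin, Dsp, had a ratio difference of -0.15, and plakoglobin, Jup, of -0.27.

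**Figure D5:**
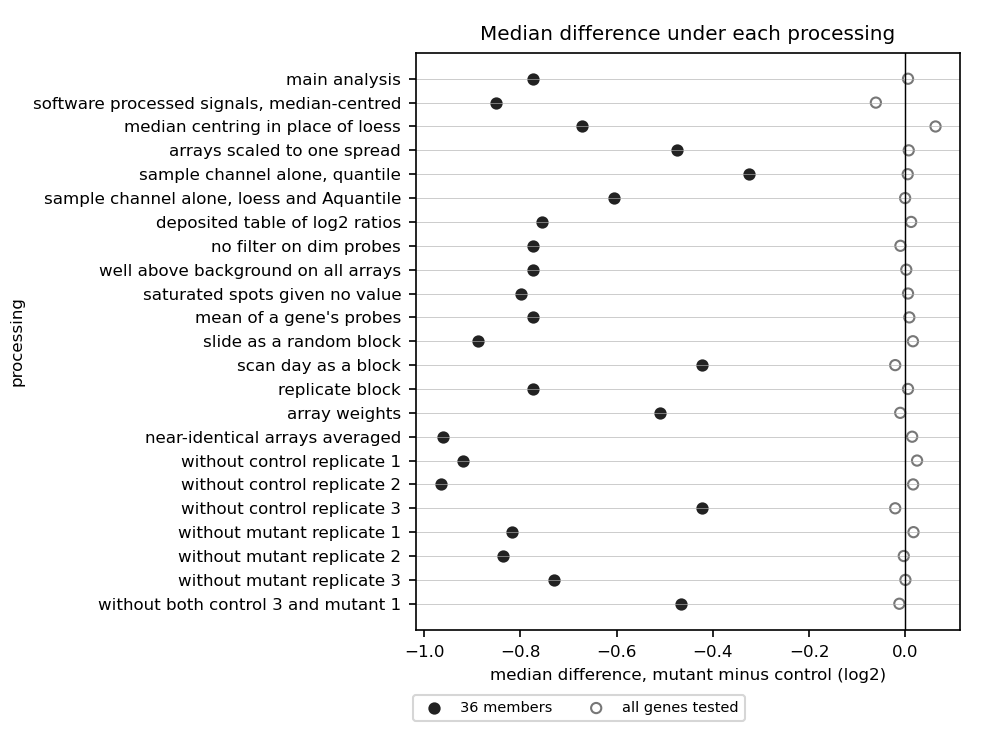
Median mutant minus control difference (log2) over the 36 members (filled) and over all genes tested (open) in the main analysis and under each alternative processing. The members' median stays between -0.97 and -0.32, and is nearest 0 for the sample channel with quantile scaling and without control 3.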

How the data were processed

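Intensity values are those the authors deposited as scanner output: mean signal and median local background per channel. Per the file headers, Feature Extraction 10.7.3.1 read control 3 and 10.5.1.1 the rest (the submitters' processing notes say 9.1), and probe positions follow mm9. The authors' value table, in log2, was an alternative. It ran as sample over reference against the scanner values, at slopes of 0.978 to 1.17; medians of its columns were 0.026 to 0.06, and its scaling and centring stay unknown. In it, mutants 1 and 3 each matched the other's scanner file best (r = 0.973 and 0.969, against 0.886 and 0.881 with their own), and mutant 1 here is the one of the scanner files.

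Background was corrected by normexp (offset 50), and loess was run within arrays in limma 3.58.1 (R 4.3.3). Control and outlier spots carried no weight and were dropped, and repeated spots averaged. Probes below the filter (well above background, sample channel, 3 arrays or more) were left out. RefSeq names (GRCm38.p6) matched 79.4% of probes; members kept the names of the files. The 2 groups were compared by lmFit and eBayes, two-sided, with Benjamini-Hochberg adjustment over 20574 genes. Each channel was also taken apart after Aquantile scaling. With 4 residual degrees of freedom, the number of arrays limits precision. The labels call the samples biological replicates without saying how animals were sampled, so a p-value covers only the spread among these arrays, which may in part be technical.

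All measured members are named. The smallest p of each role group receives array values and full statistics, and each pathway list names up to 4 genes by p, in addition to Dsp, Jup and Dsc2, which were picked after their values were seen. Members and lists were chosen with earlier results of these data known. Tested on simulated data (20489 genes), the fit found 46% of changes of 1 log2 unit, 70% of changes of 2, and made 5 false calls. The simulated arrays varied independently of each other, unlike the close pairs on shared slides here. These rates therefore do not tell how many calls in the real data are false. Deviations of same-numbered arrays correlated at 0.0043, 0.020 and 0.13, and those of differently numbered arrays at -0.12 to 0.089. These values show no clear pairing. They cannot exclude one, because mutants 1 and 3 each matched the other's scanner file best in the authors' value table.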

Additional observations from a re-analysis of the deposited data

How the results depend on the processing

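The members' median difference was negative under all 22 alternatives, from -0.97 to -0.32; it stood at -0.32 in the sample channel with quantile scaling and -0.42 without control 3, against -0.77 over all 6 arrays. The count of genes called was less steady: 581 became 225 with the software's processed signals, 266 with median centring in place of loess, 304 and 347 in the sample channel with quantile or with loess and Aquantile scaling, 4 with slide as a random block, 137 with the replicate block, 0 with near-identical arrays averaged, 1483 with scan day as a block, 8009 with array weights and 7730 without both control 3 and mutant 1. No member was called with the replicate block. Leaving out 1 array gave 34 to 1483 genes and 0 to 1 members. Members called were 1 with scan day as a block, which amounts to leaving out control 3, and 24 each with array weights and without both control 3 and mutant 1; array weights gave control 3 and mutant 1 the lowest weights, 0.101 and 0.19.

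Signs turned for 8 members in 15 of their values. With quantile scaling of the sample channel the values were Tgm1 0.25, Tgm3 0.87, Cnfn 0.20, Lce3c 0.30, Lypd3 0.051, Sult2b1 0.25 and Alox12b 0.18. After loess and Aquantile they were Tgm1 0.12, Tgm3 0.75, Sult2b1 0.21 and Alox12b 0.081. Sult2b1 was at 0.025 with arrays scaled to one spread. Lce1l was at 0.07 with array weights and 0.075 without both arrays, and ranged from -0.64 to 0.064 when 1 array was left out. Among other named genes, Cyp4f39 was at 0.42 and 0.33 in the sample channel with quantile and with loess and Aquantile scaling, and on processed signals Tmprss11d was at -0.96 and Stfa2 at -0.24. Apart from the effect of using fewer arrays, the cause was not tested. The filter on dim probes, saturated spots and the averaging of probes left the count within 1.5 times and 0 members called.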
